A study of Mus musculus with 8 samples.

Results

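Amino acid transporters of the renal proximal tubule were followed in mouse tubules collected 0, 24, 48 and 72 h into cisplatin injury. The set was chosen by name, with earlier results of these data known. It holds 8 genes: Slc3a1, Slc7a9, Slc7a13, Slc6a19, Slc1a1, Slc7a7, Slc7a8 and Slc43a2. Of these, 7 had a row under their name among 21874 gene rows and all 7 were among the 10757 rows tested. Slc43a2, a uniporter of neutral amino acids, had no row under its name; its locus (mm10 chr11:75529915-75577575) lies within rows named for the neighbours Mnt and Aspa, so no value is given for it. The 3 groups after cisplatin, at 24, 48 and 72 h, and the 0 h group each held 2 libraries of proximal tubular cells isolated from renal cortex of male C57BL/6 mice. Cisplatin, a chemotherapy agent whose kidney toxicity falls mainly on these tubules, was given at 30 mg/kg by intraperitoneal injection. The labels do not say whether the 0 h mice were injected, and give no genotype beyond the strain and no age. The duplicates are called biological, but separate animals are not stated, and the p-values then cover only the spread between these samples. Columns carry a letter a or b, and libraries are named here by time and letter.

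The proximal tubule takes back nearly all filtered amino acids. Each amino acid first crosses the apical brush border and then leaves through the basolateral membrane. Several of these carriers are heteromers, in which a glycoprotein heavy chain brings a light chain to the membrane and the light chain does the transport. At the apical side the heavy chain Slc3a1 pairs with Slc7a9, which carries cystine and dibasic amino acids, and, in the straight S3 segment of the mouse, with Slc7a13, which carries acidic amino acids and cystine. Loss of Slc3a1 or Slc7a9 causes cystinuria. Slc6a19 takes up neutral amino acids and is the gene of Hartnup disorder, and Slc1a1 takes up glutamate and aspartate. At the basolateral side the heavy chain Slc3a2 pairs with Slc7a7, the exporter of dibasic amino acids that is lost in lysinuric protein intolerance, and with Slc7a8, an exchanger of neutral amino acids.

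The promoters of a heavy and light chain pair are given because HNF4 is a known regulator of proximal tubule genes and the RNA of Hnf4a is described further on. RefSeq windows of build GRCm38.p6 run from 250 bases before to 50 bases after a gene's start, 300 bases in all, and 7 of the 8 transporters had at least 1 (13 windows in all). Slc7a13 was not in the table. Letters searched on both strands were the HNF4 sequences CAAAGTCCA and CAAAGGTCA, which do not contain one another. The windows below are at chr17:85028097-85028396 on the plus strand for Slc3a1 and at chr7:35448842-35449141 on the plus strand for Slc7a9 (window 1 of 2). Each is written 5′ to 3′ along the gene, with matches in capitals.
Slc3a1: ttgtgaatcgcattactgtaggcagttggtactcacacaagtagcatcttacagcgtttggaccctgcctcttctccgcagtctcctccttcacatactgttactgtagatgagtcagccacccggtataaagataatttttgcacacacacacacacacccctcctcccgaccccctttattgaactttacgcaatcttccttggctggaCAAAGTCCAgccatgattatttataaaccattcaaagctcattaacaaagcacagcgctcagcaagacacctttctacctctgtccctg
Slc7a9: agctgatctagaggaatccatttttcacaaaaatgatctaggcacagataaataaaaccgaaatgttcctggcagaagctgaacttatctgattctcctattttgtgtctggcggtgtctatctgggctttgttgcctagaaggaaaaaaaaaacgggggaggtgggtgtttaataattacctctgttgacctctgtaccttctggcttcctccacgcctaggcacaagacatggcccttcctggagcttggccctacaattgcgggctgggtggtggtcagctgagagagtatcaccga

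The Slc3a1 window held CAAAGTCCA starting 39 bases before the start, and no match was found in the Slc7a9 window. CAAAGTCCA was found for 1 of the 7 transporters with a window, against 0.555% of 27025 genes. Some genes have several windows, and by window it was found in 1 of 13, against 0.475% of 32851. CAAAGGTCA was found for 0 of 7, against 0.544% of genes. These matches describe letters in short windows and not binding.

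Levels are in FPKM, fragments scaled by the length of the row's transcripts and by sequenced depth, which are comparable between genes of different length. At 0 h the 7 rows summed to 1363 and 1391 FPKM in libraries a and b. They summed to 574 and 542 FPKM at 24 h, 290.2 and 299 FPKM at 48 h, and 324 and 347 FPKM at 72 h. Every later library lay below both 0 h libraries. As a share of all FPKM in a library the 7 rows made up 0.304% and 0.308% at 0 h and 0.153% and 0.155% at 24 h, and stood at 0.0924% and 0.0942% in the 48 h libraries, close to the 0.0921% and 0.0979% of the 72 h libraries. The deposited FPKM do not sum to the same total, which ranged over 314173 to 375186 in the 6 later libraries and over 448667 to 452114 at 0 h. Depth is not known from FPKM.

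All 7 rows fell at 24, 48 and 72 h relative to 0 h. A row was called when limma's adjusted p (Benjamini-Hochberg over all 10757 rows) was under 0.05, with fold changes on the log2(FPKM + 1) scale, which understates the change of rows with low FPKM. Of all tested rows, 40.0% were called lower at 24 h, 42.1% at 48 h and 32.4% at 72 h, so a fall by itself was common. In each of the 7 rows both later libraries also lay below both 0 h libraries, which held for 48.3% of all rows at 24 h, 49.9% at 48 h and 40.2% at 72 h. Falls of at least 2-fold were less common. As deposited, they took in 7 of 7 transporters at 24 h against 9.31% of all rows. At 48 h they took in 7 of 7 against 14.6%, and at 72 h 6 of 7 against 11.2%. The 24 h count depends on the scaling. With every library at the same sum, Slc6a19 (-0.93), Slc3a1 (-0.80) and Slc7a13 (-0.76) fell by less than 2-fold at 24 h. The same rows fell by less than 2-fold after quantile normalisation. The share of all rows was not counted under those scalings. The median log2 fold change of the 7 rows was -1.43 at 24 h, -2.43 at 48 h and -2.52 at 72 h, and that of all tested rows was -0.12, -0.13 and 0.07. A further fall between 24 and 48 h was called for 7 of 7, against 17.2% of all rows. In all 7 the 48 h libraries lay below the 24 h libraries, against 35.7% of rows, and in 2 of 7 the further fall was at least 2-fold, against 0.920%. Between 48 and 72 h the members parted: 1 of 7 fell (Slc7a13), against 11.3% of all rows, 2 of 7 rose (Slc6a19 and Slc7a8), against 37.2%, and 4 were not called. Both 72 h libraries lay below both 48 h libraries in 1 of 7, against 21.8% of rows, and above them in 3 of 7 (Slc6a19, Slc7a8 and Slc7a7), against 56.0%.

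How many rows of the whole table were called lower depends on the scaling. With FPKM as deposited, 4304 rows were lower and 2772 higher at 24 h. At 48 h these numbers were 4524 lower and 3061 higher, and at 72 h 3486 lower and 4049 higher. With every library brought to the same sum, 2848 were lower and 4225 higher at 24 h, 2596 lower and 5275 higher at 48 h, and 2305 lower and 5736 higher at 72 h. The median of all rows was then 0.14, 0.32 and 0.40. Between 24 and 48 h, 1846 rows were lower and 1200 higher as deposited, against 987 and 2720 at the same sum. From 48 to 72 h, 1212 rows were lower and 3999 higher as deposited, against 2017 and 2776 at the same sum, and 2580 and 2224 with the same median in every library. The falls of all 7 transporters against 0 h and between 24 and 48 h were called under each of these scalings.

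**Figure D1:**
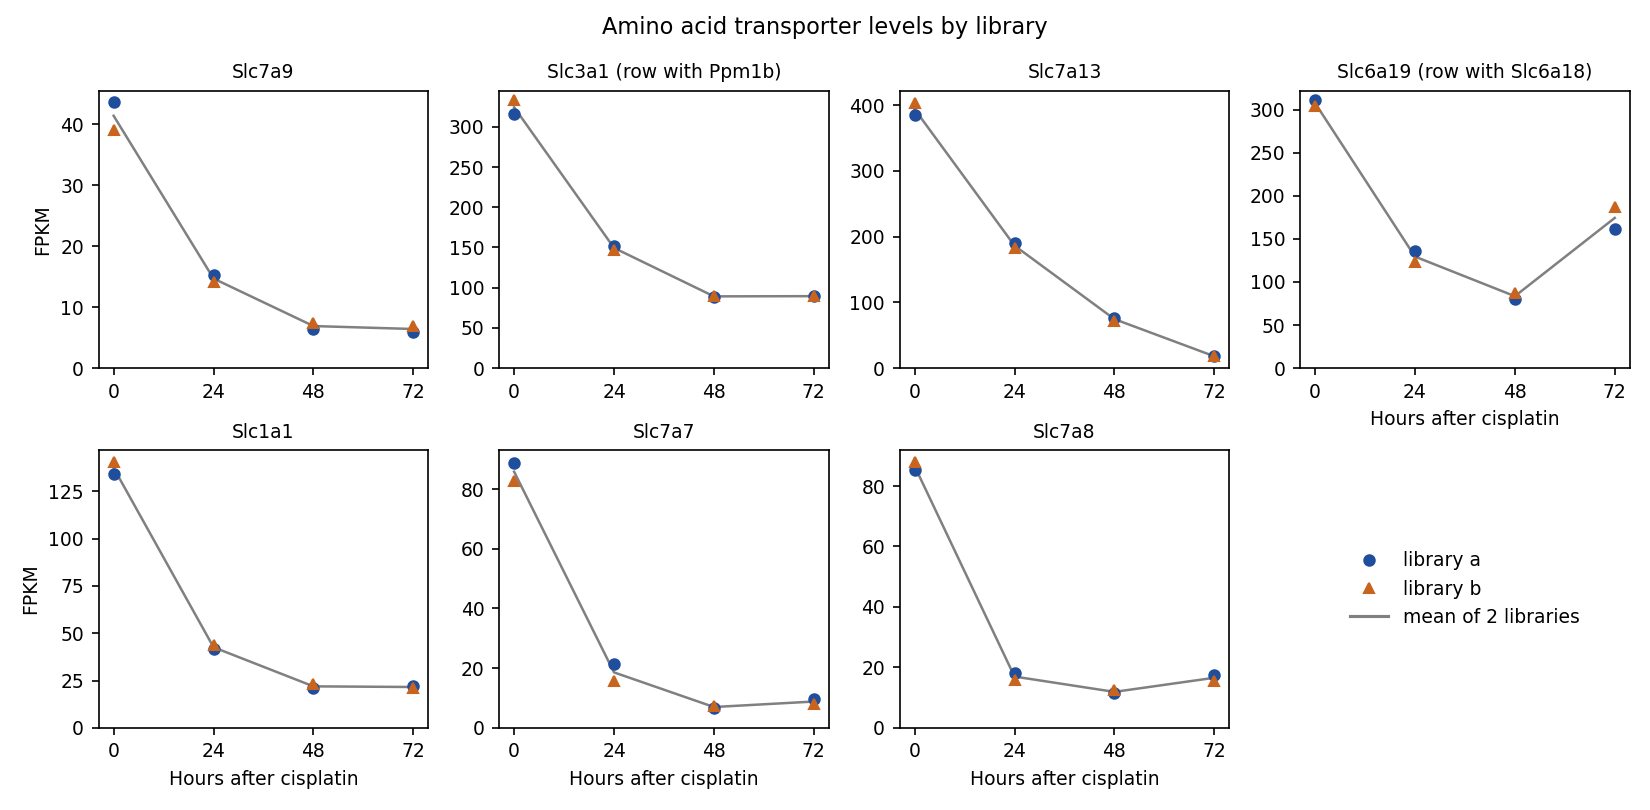
FPKM of the 7 transporter rows (vertical axes, each with its own range from 0) at 0, 24, 48 and 72 h (horizontal axes), with a circle for library a, a triangle for library b and a line through the mean of 2 libraries. All rows are highest at 0 h; Slc7a13 keeps falling to 18.0 FPKM at 72 h, while Slc6a19 stands at 174 FPKM at 72 h and 83.4 FPKM at 48 h.

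Slc3a1 (ENSMUSG00000024131, chr17:84956741-85068228, plus strand, mm10) is the heavy chain that carries its light chains to the brush border. Its row also spans the gene Ppm1b, which has no row of its own, so the value is that of both. The row had 316 and 333 FPKM at 0 h, 152 and 147 FPKM at 24 h, 88.4 and 90.0 FPKM at 48 h, and 89.1 and 89.8 FPKM at 72 h. It came down in 2 steps and then held level, with the 48 and 72 h libraries overlapping. The mean at 72 h was 89.5 ± 0.536 FPKM (SD, n = 2), which is 27.6% of the 0 h mean of 324 ± 12.2 FPKM. The log2 fold change against 0 h was -1.11 at 24 h (SE 0.0593, adjusted p = 9.611e-07 by limma), -1.85 at 48 h and -1.85 at 72 h. Between 48 and 72 h it was 0.00 (95% interval -0.13 to 0.14, adjusted p = 0.960), and it turned to -0.20 (adjusted p = 0.0158) when libraries were brought to the same median.

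Slc7a9 (ENSMUSG00000030492, chr7:35448219-35470495, plus strand) is the light chain that carries cystine and dibasic amino acids, and its row reaches past the end of the gene. Its level was 43.6 and 39.1 FPKM at 0 h, 15.3 and 14.0 FPKM at 24 h, 6.43 and 7.35 FPKM at 48 h, and 5.97 and 6.85 FPKM at 72 h. It was the lowest of the 7 rows by mean at every time. The mean at 72 h, 6.41 ± 0.622 FPKM (SD, n = 2), was 15.5% of the 0 h mean of 41.4 ± 3.20 FPKM. Log2 fold changes against 0 h were -1.43 at 24 h (SE 0.101, adjusted p = 4.04e-06 by limma), -2.43 at 48 h and -2.52 at 72 h. The difference between 72 and 48 h, -0.09 (95% interval -0.32 to 0.14, adjusted p = 0.483), was not called, but became -0.30 (adjusted p = 0.0359) at the same median and -0.31 (adjusted p = 0.0278) after quantile normalisation.

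Slc7a13 (ENSMUSG00000041052, chr4:19807225-19842218, plus strand), the light chain of the S3 segment, was the highest of the 7 rows at 0 h. Its row begins well before the gene and overlaps a row named Wwp1 on the other strand. There were 385 and 403 FPKM at 0 h, 189.6 and 183 FPKM at 24 h, 76.7 and 72.4 FPKM at 48 h, and 17.97 and 17.95 FPKM at 72 h. Each time stood below the one before it in both libraries. By mean it fell 21.9-fold, to 18.0 ± 0.0130 FPKM at 72 h (SD, n = 2) against 394 ± 13.0 FPKM at 0 h. Against 0 h the log2 fold change was -1.08 at 24 h, -2.39 at 48 h and -4.38 at 72 h (SE 0.0621, adjusted p = 6.166e-10 at 72 h by limma). It fell by 1.99 on the log2 scale at 72 h relative to 48 h (adjusted p = 2.827e-07). A fall of at least 2-fold in that interval was called for 0.716% of all tested rows.

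Slc6a19 (ENSMUSG00000021565, chr13:73646777-73701444, minus strand) takes up neutral amino acids at the brush border. Its row also spans Slc6a18, a related neutral amino acid transporter with no row of its own, and overlaps a row named Tert on the other strand, so the level is that of the pair. The row had 311 and 305 FPKM at 0 h, 136 and 122.8 FPKM at 24 h, 79.9 and 87.0 FPKM at 48 h, and 161 and 187 FPKM at 72 h. It was lowest at 48 h, and both 72 h libraries lay above all libraries of 24 and 48 h and below those of 0 h. At 72 h the mean was 174 ± 18.4 FPKM (SD, n = 2), 56.7% of the 0 h mean of 308 ± 4.32 FPKM. Log2 fold changes against 0 h were -1.24 at 24 h (SE 0.0880, adjusted p = 4.1e-06 by limma), -1.87 at 48 h and -0.82 at 72 h (adjusted p = 3.268e-05). The rise at 72 h relative to 48 h was 1.05 (adjusted p = 3.988e-05). Under other settings the 72 h value against 0 h ranged over -0.93 to -0.39.

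Slc1a1 (ENSMUSG00000024935, chr19:28834697-28914232, plus strand) takes up glutamate and aspartate and is the gene of dicarboxylic aminoaciduria. Its row kept to the gene. It had 134 and 141 FPKM at 0 h, 41.5 and 43.7 FPKM at 24 h, 20.9 and 22.9 FPKM at 48 h, and 22.0 and 21.1 FPKM at 72 h. The libraries of 48 and 72 h overlapped, and all lay below those of 24 h. The 72 h mean, 21.6 ± 0.650 FPKM (SD, n = 2), was 15.7% of the 0 h mean of 137 ± 4.75 FPKM. Log2 fold changes against 0 h were -1.67 at 24 h (SE 0.0712, adjusted p = 3.405e-07 by limma), -2.59 at 48 h and -2.61 at 72 h. At 72 h relative to 48 h the difference was -0.02 (95% interval -0.18 to 0.14, adjusted p = 0.836), and -0.22 (adjusted p = 0.0391) at the same median.

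The 2 basolateral light chains lie 302115 bases apart on chromosome 14 and their rows kept to their genes. Slc7a7 (ENSMUSG00000000958, chr14:54368318-54420097, minus strand), which exports dibasic amino acids, had 88.9 and 82.7 FPKM at 0 h, 21.5 and 15.6 FPKM at 24 h, 6.57 and 7.38 FPKM at 48 h, and 9.71 and 7.91 FPKM at 72 h. Its 48 h mean of 6.97 ± 0.568 FPKM (SD, n = 2) was 8.13% of the 0 h mean of 85.8 ± 4.36 FPKM, the lowest share of the 7 rows at that time. The log2 fold change against 0 h was -2.16 at 24 h (SE 0.148, adjusted p = 5.178e-06 by limma), -3.45 at 48 h and -3.15 at 72 h. Both 72 h libraries were above both 48 h libraries, but the difference of 0.29 (95% interval -0.04 to 0.63, adjusted p = 0.133) was not called. Without 24 h library a or b it passed, with an adjusted p of 0.0477 or 0.0473.

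Slc7a8 (ENSMUSG00000022180, chr14:54722212-54782170, minus strand), which exchanges neutral amino acids, had 85.1 and 88.0 FPKM at 0 h, 18.0 and 16.0 FPKM at 24 h, 11.4 and 12.4 FPKM at 48 h, and 17.5 and 15.6 FPKM at 72 h. At 24 h its log2 fold change was -2.29 (SE 0.0884, adjusted p = 2.304e-07 by limma), with a mean of 19.6% of the 0 h level. At 48 h the log2 fold change was -2.77 and at 72 h -2.32. The 72 h libraries were both above the 48 h libraries, and overlapped those of 24 h. The rise at 72 h relative to 48 h was 0.44 (adjusted p = 0.00336), to 16.6 ± 1.37 FPKM at 72 h against 11.9 ± 0.752 FPKM at 48 h (SD, n = 2 each). Under other settings this rise ranged over 0.24 to 0.52, and the median of all tested rows was 0.18 as deposited.

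**Figure D2:**
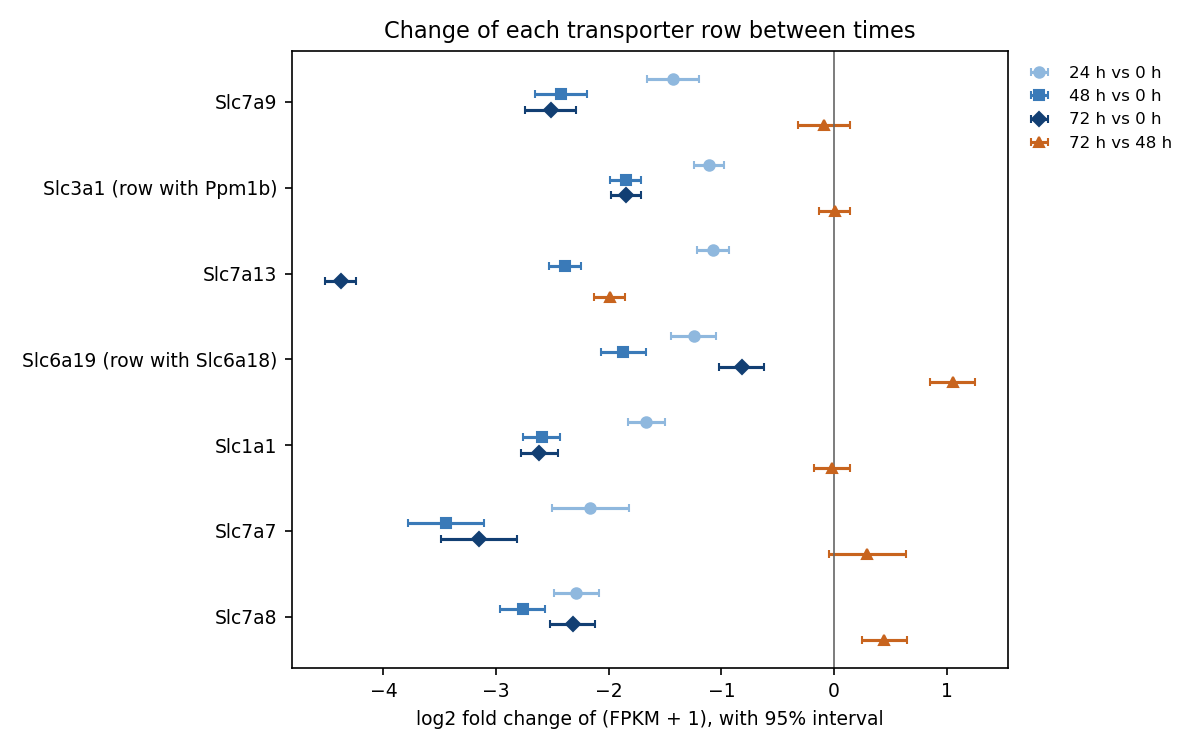
Log2 fold change of (FPKM + 1) with its 95% interval (horizontal axis) for each of the 7 transporter rows (vertical axis), at 24, 48 and 72 h against 0 h (circles, squares, diamonds) and at 72 h against 48 h (triangles). All values against 0 h lie below 0, with Slc7a13 at -4.38 at 72 h, and only Slc7a13 (-1.99), Slc6a19 (1.05) and Slc7a8 (0.44) have triangles whose interval lies off 0.

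The order of the levels changed with time. At 0 and 24 h it was Slc7a13, Slc3a1, Slc6a19 and Slc1a1 from the top, each above the next in both libraries. Slc7a7 and Slc7a8 followed with overlapping libraries, and Slc7a9 came last. At 48 h Slc3a1 led, ahead of Slc6a19 and Slc7a13, and the libraries of Slc7a7 and Slc7a9 overlapped. At 72 h Slc6a19 led, Slc7a13 stood below Slc1a1, and each row was above the next in both libraries. Of the summed level of the 7 rows, Slc7a13 made up 28.6% at 0 h, 33.4% at 24 h, 25.3% at 48 h and 5.36% at 72 h. The share of Slc6a19 was 22.3%, 23.2%, 28.3% and 52.0% at the same times. Slc3a1 kept between 23.6% and 30.3%.

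A library's scaling cancels in the FPKM ratio of 2 chains. Ratios were computed for 6 pairs as the log2 ratio of FPKM + 1 and compared over the 4 times by an exact permutation test over all assignments of the libraries to the times, whose smallest p is 0.00952. Slc3a1 stood at 0.821 to 0.826 times the FPKM of Slc7a13 at 0 h, 0.800 to 0.804 times at 24 h, 1.15 to 1.24 times at 48 h and 4.96 to 5.004 times at 72 h (exact permutation p = 0.00952, adjusted over the 6 ratios 0.019). Slc3a1 over Slc7a9 was 7.24 to 8.52 at 0 h, 9.91 to 10.5 at 24 h, 12.2 to 13.8 at 48 h and 13.1 to 14.9 at 72 h (exact p = 0.019, adjusted 0.0286). The heavy chain row therefore fell less than either apical light chain by 72 h, with the limit that it includes Ppm1b. Slc7a13 over Slc7a9 was 8.82 to 10.3 at 0 h, 12.4 to 13.0 at 24 h, 9.84 to 11.9 at 48 h and 2.62 to 3.01 at 72 h (exact p = 0.0381, adjusted 0.0381).

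On the basolateral side Slc7a8 over Slc7a7 was 0.958 to 1.06 at 0 h, 0.835 to 1.02 at 24 h, 1.68 to 1.73 at 48 h and 1.81 to 1.97 at 72 h (exact permutation p = 0.0381, adjusted 0.0381). These light chains stood level at first, and Slc7a8 was higher at 48 and 72 h. Slc3a2, their heavy chain, averaged 130.6, 131.8, 130.0 and 110.1 FPKM at 0, 24, 48 and 72 h. Its row reaches over a long stretch of chromosome 19 and many neighbouring genes, so it is a weak measure of Slc3a2. On that row, Slc3a2 over Slc7a7 was 17.7 to 19.7 at 48 h against 1.40 to 1.66 at 0 h, and Slc3a2 over Slc7a8 was 10.5 to 11.4 at 48 h against 1.46 to 1.56 at 0 h (exact p = 0.00952 and adjusted 0.019 for each).

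**Figure D3:**
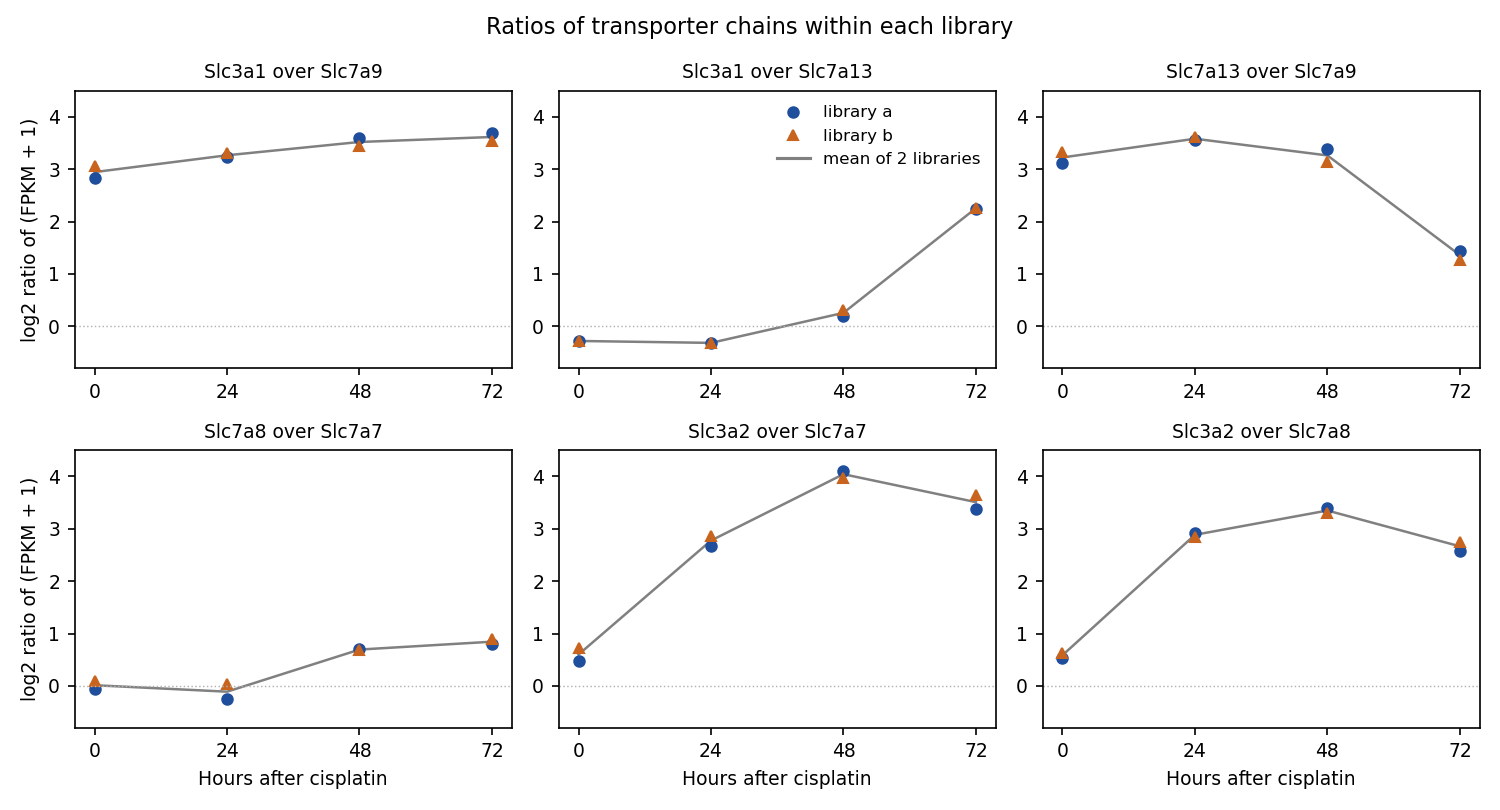
Log2 ratio of (FPKM + 1) within each library (vertical axes, common range) for 6 pairs of transporter chains at 0, 24, 48 and 72 h (horizontal axes), with a circle for library a, a triangle for library b and a line through the mean of 2 libraries. Slc3a1 over Slc7a13 is at 2.25 at 72 h against -0.28 at 0 h, and the ratios with Slc3a2 are highest at 48 h.

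Over the 8 libraries the profiles of log2(FPKM + 1) were most alike for Slc3a1 and Slc1a1 (Pearson r = 0.998) and least alike for Slc7a13 and Slc6a19 (r = 0.376). Libraries of 1 time share that time and its scaling, and all rows start high, so r is a description. Rows that also span a gene without a row of its own, such as that of Slc3a1, were left out of the candidates. Of 8719 candidate rows, those most like Slc7a9 were P3h2 and Abcb8 (r = 0.998 each), and those most like Slc3a1 were Slc1a1 and Idh2 (r = 0.998 each). For Slc7a13 they were Abhd3 and Khk (r = 0.999 each), and for Slc6a19 Akt1s1 (r = 0.997) and Atp9a (r = 0.995). For Slc1a1 they were Zkscan1 (r = 0.997) and Asb9 (r = 0.997), for Slc7a7 Rufy3 and Shf (r = 0.998 each) and for Slc7a8 Maf and Wdtc1 (r = 0.998 each). Atp9a, for one, averaged 11.8, 5.69, 3.80 and 7.48 FPKM at 0, 24, 48 and 72 h, with the same low point at 48 h as Slc6a19.

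Of 10 listed other apical and epithelial amino acid and peptide transporters, 6 were tested. At 24 h 4 fell and 1 rose (median log2 fold change -1.14), where 40.0% of all rows were called lower. All 6 fell at 48 h (-1.67; 42.1% of all rows) and again at 72 h (-1.73; 32.4% of all rows). The row of Slc6a20b, which also spans Slc6a20a, averaged 75.8, 27.7, 13.9 and 9.04 FPKM at 0, 24, 48 and 72 h (log2 fold change -2.94 at 72 h). Slc15a2, a peptide transporter, was still at 38.7 and 38.5 FPKM at 24 h against 35.5 and 36.8 FPKM at 0 h (adjusted p = 0.426 by limma), and it fell to 10.6 FPKM at 72 h. With every library at the same sum its 24 h value was called higher (0.41, adjusted p = 0.00771). Slc7a12, a light chain of low level, was the 1 that rose at 24 h, to 4.48 FPKM against 2.49 FPKM at 0 h (log2 fold change 0.65, adjusted p = 0.00175). The taurine transporter Slc6a6 also had its lowest mean at 48 h: it averaged 92.4, 32.6, 30.1 and 51.6 FPKM and rose at 72 h relative to 48 h (0.76, adjusted p = 0.000198).

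Of 6 listed partners at the basolateral membrane, 4 were tested, with 2 lower and 1 higher at 24 h, the same numbers at 48 h, and 3 lower and 1 higher at 72 h. The shares of all rows called lower were 40.0%, 42.1% and 32.4%, so the count at 24 and 48 h is near that of the whole table. At the same sum 2 were lower and 2 higher at 24 and 48 h. Slc16a10, which lets aromatic amino acids out, averaged 23.0, 9.35, 7.18 and 6.89 FPKM at 0, 24, 48 and 72 h. The glutamine transporter Slc38a3 was 24.0, 7.15, 3.76 and 13.7 FPKM and rose at 72 h relative to 48 h by 1.62 (adjusted p = 1.674e-05 by limma). Slc7a6, a relative of Slc7a7 found in many tissues, rose at each time, to 2.85 FPKM at 72 h against 0.853 FPKM at 0 h (log2 fold change 1.06). Both its 0 h libraries were under 1 FPKM, so it passed the filter only through later libraries. The Slc3a2 row was not called at 24 or 48 h and was lower at 72 h (-0.24, adjusted p = 0.0334). That direction flipped with every library at the same sum, where it was 0.51 at 48 h (adjusted p = 0.000168) and 0.11 at 72 h (adjusted p = 0.191), and after quantile normalisation.

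Among tested amino acid transporters of growth and stress, more rises than falls were called at each time, in part through the filter. Of 14 listed, 11 were tested: 5 rose and 4 fell at 24 h (median 0.37), 7 rose and 4 fell at 48 h (0.39), and 7 rose and 3 fell at 72 h (0.87). Higher calls were made for 25.8%, 28.5% and 37.6% of all rows at these times. Slc7a5, Slc7a11 and Slc38a1 did not reach 1 FPKM in both 0 h libraries and entered the test only with the help of later ones. Without them the rises would not outnumber the falls at 24 or 48 h. Slc38a4, lower in each later library than at 0 h, stayed under 1 FPKM and was not tested. Slc38a2, which takes up small neutral amino acids, averaged 13.7, 21.7, 26.6 and 37.1 FPKM at 0, 24, 48 and 72 h (log2 fold change 1.37 at 72 h, adjusted p = 1.54e-07 by limma). Slc7a5, a light chain of Slc3a2 that serves growing cells, averaged 0.531, 1.62, 2.27 and 3.66 FPKM (1.60 at 72 h). The cationic transporter Slc7a1 averaged 1.73, 2.76, 3.96 and 6.92 FPKM (1.54 at 72 h). Slc7a11, which imports cystine in exchange for glutamate, had 1.58 and 0.872 FPKM at 24 h against 0.0178 and 0.0401 FPKM at 0 h (log2 fold change 1.09). Slc1a4 and Slc6a9, carriers of small neutral amino acids and of glycine, were among those that fell (-1.51 and -1.36 at 48 h), and Slc6a9 rose again at 72 h relative to 48 h (0.84). At the same sum the 72 h fall of Slc6a9 was not called (-0.24, adjusted p = 0.133).

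**Figure D4:**
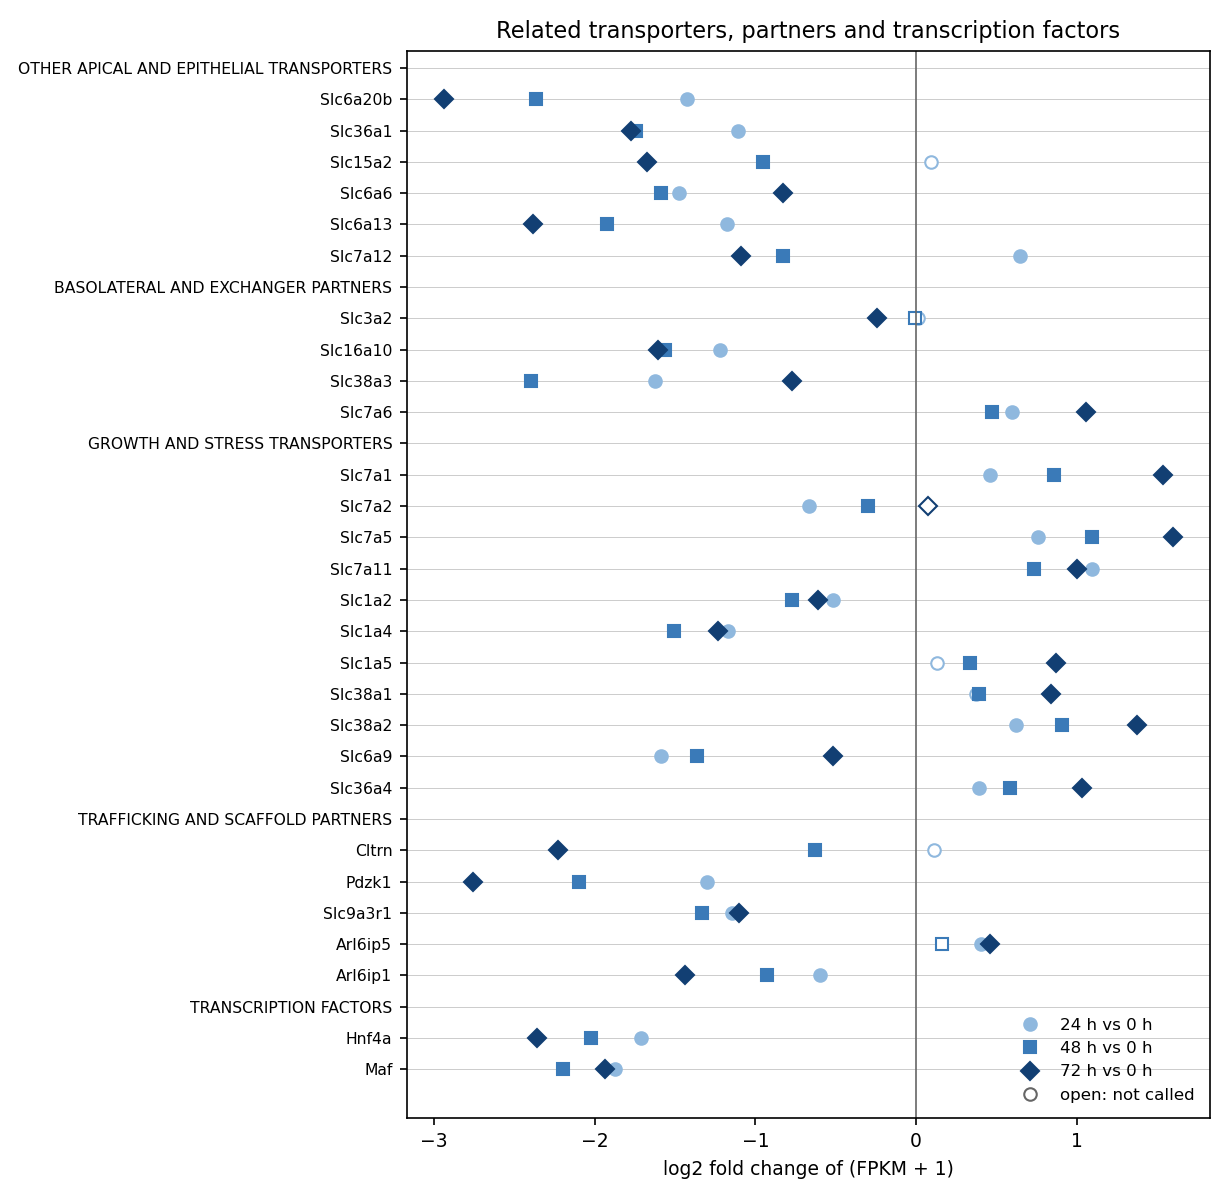
Log2 fold change of (FPKM + 1) at 24, 48 and 72 h against 0 h (circles, squares, diamonds; horizontal axis) for the tested genes of 5 lists of related transporters, partners and transcription factors (vertical axis); open symbols were not called. Hnf4a and Maf lie below 0 at every time, and Slc38a2, Slc7a1 and Slc7a5 above 0.

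The partners that bring these carriers to the membrane or anchor them there did not all follow the same course. Of 5 described and tested, 3 fell and 1 rose at 24 h (median -0.60), 4 fell at 48 h (-0.93), and 4 fell and 1 rose at 72 h (-1.44), where 40.0%, 42.1% and 32.4% of all rows were called lower. At the same sum 3 fell and 2 rose at 24 h, and 3 fell and 1 rose at 48 h. Cltrn (collectrin), which Slc6a19 needs at the renal brush border, had 838 and 873 FPKM at 0 h, 891 and 956 FPKM at 24 h, 555 and 551 FPKM at 48 h, and 186 and 177 FPKM at 72 h. It was thus not lower at 24 h (log2 fold change 0.11, adjusted p = 0.159 by limma), when Slc6a19 was already lower. At 72 h it fell by 1.60 on the log2 scale relative to 48 h (adjusted p = 7.667e-07), when the Slc6a19 row rose. At the same sum Cltrn was called higher at 24 h (0.42, adjusted p = 0.000831) and not lower at 48 h (-0.12, adjusted p = 0.172). Pdzk1, a scaffold of brush border transporters, averaged 206, 83.0, 47.4 and 29.6 FPKM at 0, 24, 48 and 72 h (log2 fold change -2.76 at 72 h). Arl6ip5, which binds Slc1a1 and lowers its activity, was the 1 that rose, to 25.5 FPKM at 72 h against 18.2 FPKM at 0 h (0.46, adjusted p = 0.000277). At 48 h it was not called (0.16), but rose at the same sum (0.67, adjusted p = 4.108e-05).

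Hnf4a and Maf, transcription factors expressed in the proximal tubule, both fell at 24, 48 and 72 h. Hnf4a averaged 134.9, 40.5, 32.4 and 25.5 FPKM at 0, 24, 48 and 72 h (log2 fold change -1.71 at 24 h, adjusted p = 3.584e-07 by limma, and -2.36 at 72 h). Maf, whose profile was the nearest to that of Slc7a8, averaged 43.9, 11.3, 8.79 and 10.7 FPKM. Maf rose at 72 h relative to 48 h (0.26), while Hnf4a fell (-0.34). The rise of Maf was not called at the same sum (0.13) or the same median (0.06).

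Markers of the proximal tubule itself also fell against 0 h, and they fell again at 72 h relative to 48 h, where 1 of the 7 transporters was called lower. The 8 listed (Lrp2, Cubn, Slc34a1, Slc5a2, Slc5a12, Aqp1, Slc22a6, whose row is merged with a neighbour, and Slc13a3) summed to 4085 and 4421 FPKM at 0 h, 1895 and 1615 FPKM at 24 h, 1142 and 1199.9 FPKM at 48 h, and 559 and 566 FPKM at 72 h. Of these, 7 were called lower at 24 h (40.0% of all rows), and all 8 at 48 h (42.1%) and 72 h (32.4%). All 8 were also called lower at 72 h than at 48 h, against 11.3% of all rows. These marker calls are given only for FPKM as deposited. With the same median in every library, more of the transporters were called lower in that interval. The 5 markers of the S3 segment, of which Slc7a13 is 1, summed to 161 and 145 FPKM at 72 h against 1029 and 1293 FPKM at 0 h, and all 5 fell at each time against 0 h, beside the same shares of all rows. At 72 h relative to 48 h 3 of these 5 were called lower and 2 were not called. Cyp7b1, not called, had both 72 h libraries above those of 48 h (mean 8.97 against 4.06 FPKM). In these bulk samples fewer cells of a type and less RNA per cell cannot be told apart.

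Markers of other cells were present in all libraries and changed with time. Of the cell types listed, the proximal tubule had the highest sum in every library. Its list of 8 is the longest, so these sums do not compare amounts of cells. Given as the range over both libraries, fibroblast markers (4) summed to 34.3 to 37.3 FPKM at 0 h, 57.7 to 68.7 at 24 h, 92.6 to 94.5 at 48 h and 160 to 162 at 72 h, and neutrophil markers (4) were 0.998 to 1.11, 25.1 to 26.6, 23.2 to 28.2 and 61.6 to 64.0 FPKM at the same times. The fibroblast markers differed at 24 h: Dcn and Col3a1 rose, Col1a1 fell (6.60 against 10.1 FPKM at 0 h) and Pdgfrb was not called. Endothelial markers (4) were 76.2 to 81.4 FPKM at 72 h against 40.3 to 42.7 FPKM at 0 h. Macrophage markers (3 with a row) were 49.98 to 52.1 FPKM at 72 h against 18.2 to 18.5 FPKM at 0 h, and podocyte markers (4) 46.1 to 47.3 FPKM at 72 h against 21.9 to 25.5 FPKM at 0 h. Collecting duct principal cell markers (4) were 196 to 210.3 FPKM at 72 h against 104.98 to 119.9 FPKM at 0 h, but their members differed. Aqp2 and Fxyd4 rose at each time, Scnn1g fell at each time (5.28 FPKM at 72 h against 9.77 FPKM at 0 h), and Aqp3 fell at 24 and 48 h and was not called at 72 h. Thick ascending limb markers (3 with a row) were 240.2 to 246 FPKM at 0 h, 148 to 151 FPKM at 24 h, 90.4 to 91.3 FPKM at 48 h and 121 FPKM in each 72 h library. At 72 h relative to 48 h, when 37.2% of all rows were called higher and Slc6a19 and Slc7a8 rose, so did 3 of 3 thick ascending limb markers, 4 of 4 each of collecting duct principal cells, endothelium and neutrophils, 2 of 2 tested of macrophages, 3 of 4 of fibroblasts and 2 of 4 of intercalated cells. Among the neutrophil markers, Csf3r stayed under 1 FPKM until 72 h and passed the filter only there. Distal convoluted tubule markers (4) were 51.2 to 54.1 FPKM at 72 h against 275 to 297 FPKM at 0 h, and intercalated cell markers (4) 16.4 to 16.8 FPKM at 72 h against 37.6 to 38.3 FPKM at 0 h. Of the intercalated cell markers 3 fell at 72 h, and Atp6v1g3 was not called (6.93 against 6.00 FPKM at 0 h). Red cell markers (2 with a row) were 4.26 to 4.81 FPKM at 72 h against 373 to 381 FPKM at 0 h. No marker with a row was at 0 in any library. The part of these cells in the transporters' changes was not tested.

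The same libraries were also read for circular RNA, through counts of back-splice junctions that close a circle. Library totals ran from 13603 to 21024 counts. Of 2163 deposited position pairs, 0 lay within or overlapped any of the 8 transporter genes, so this readout gives no second measure of them.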

How the data were processed

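Linear RNA was deposited by the authors as FPKM per gene row and library, named so per the file headers; per the submitters' processing notes the tools were Bowtie 0.12.2, TopHat2 and Cufflinks and the build mm10, without their roles. Total RNA was depleted of ribosomal RNA, per the labels' protocols, with libraries from a kit named there as one for small RNA. circRNA back-splice counts were deposited without normalization; 8 further columns hold each count over its library's total and were not used here. Column letters do not match the labels' replicate numbers, so columns were assigned to a time only. No source used here says whether counting took account of strand.

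Of 21874 rows, 19742 matched a symbol by gene identifier. Rows were set against RefSeq spans of GRCm38.p6, with a tolerance of 2000 bases, to find rows that cover further genes, and a merged row cannot be split. The 10757 rows that reached 1 FPKM in 2 or more of the 8 libraries entered a single limma 3.58.1 fit (R 4.3.3; trended, robust empirical Bayes) of log2(FPKM + 1). Tests are 2-sided; p-values were adjusted by Benjamini-Hochberg in each contrast, with 0.05 as the threshold. The procedure was checked on simulated data. Python 3.11.15 with NumPy 2.4.6 and pandas 2.3.3 did the rest. Named genes are all 8 members, tested members of the lists, and the 2 rows most like each member. Some list members and a motif are not reported here. Members and lists were chosen with earlier results of these data known. Alternatives were other scalings, pseudocounts, filters and fits, and leaving out each library; the same sum without mitochondrial rows was added after seeing the data.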

Additional observations from a re-analysis of the deposited data

Results flagged for a closer look

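The change against 0 h differed between successive times for all 7 transporter rows, each tested directly in limma's fit of all 8 libraries. At 48 h relative to 24 h the log2 fold change was -0.99 for Slc7a9, -0.74 for Slc3a1 (row with Ppm1b), -1.31 for Slc7a13, -0.63 for Slc6a19 (row with Slc6a18), -0.93 for Slc1a1, -1.28 for Slc7a7 and -0.48 for Slc7a8, with the later libraries below the earlier ones in each case, as in 35.7% of all rows. At 72 h relative to 48 h the rows went separate ways. Slc7a13 fell further, with a log2 fold change of -1.99, while Slc6a19 rose by 1.05 and Slc7a8 by 0.44, again with libraries that did not overlap. Among all rows as deposited, 56.0% had both 72 h libraries above those of 48 h and 21.8% had them below, so a rise of any size was common. The median of all tested rows was 0.18, and how many rose by as much as Slc6a19 was not counted.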

How the results depend on the processing

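Calls against 0 h and between 24 and 48 h were kept for all 7 rows under each of 17 or 18 alternatives run per row. The smallest changes among these were -0.39 for Slc6a19 at 72 h against 0 h (adjusted p at most 0.00241) and -0.30 for Slc7a8 at 48 h relative to 24 h (at most 0.0394). At 72 h relative to 48 h, 3 rows were called as deposited and 6 with the same median in every library (4 lower, 2 higher), where Slc3a1 reversed to -0.20. Leaving out the merged rows leaves 5 transporters. Leaving out 1 library moved the 72 h minus 0 h log2 ratio of Slc3a1 over Slc7a9 over 0.55 to 0.79, and that of Slc3a2 over Slc7a8 over 1.995 to 2.16. Deviations of same-letter libraries correlated between -0.24 and 0.39 across pairs of times, which does not settle whether such libraries share more than a letter. With the letter as a replicate block the called transporters numbered 7, 7, 7, 7 and 3, as without it. The planned test of circRNA counts was not run, since 0 lay at these genes. FPKM give no depth, so counting error is unknown.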
